A study of Oryza sativa with 15 samples.

Results

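OsAGO4b (LOC_Os04g06770), OsDCL3a (LOC_Os01g68120) and OsRDR2 (LOC_Os04g39160) are 3 rice genes of RNA-directed DNA methylation, chosen by locus from the 13828 loci of the allele tables, and all 3 were listed in both tables. RNA was sequenced from endosperm collected 5 days after fertilization, with 20 to 30 endosperms pooled per replicate. The LR cross had the japonica line Liuqianxin-A as mother and the indica line Rongfeng-B as father (3 libraries), and RL had Rongfeng-A as mother and Liuqianxin-B as father (3 libraries). The YW cross had japonica Yu6-A as mother and indica Wufeng-B as father (2 libraries), and WY had Wufeng-A as mother and Yu6-B as father (2 libraries). Every mother was a cytoplasmic male sterile line, with sterile pollen, and every father a fertile maintainer line of another strain, so mother and cytoplasm changed together in each reciprocal pair. The 5 libraries of inbred controls have no columns in these tables and were not used here.

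In RNA-directed DNA methylation, plants copy transcripts of transposons and repeats into double-stranded RNA, cut this into small RNAs, and use those to guide DNA methyltransferases to matching sequence. An RNA-dependent RNA polymerase of the RDR2 type makes the double strand, a Dicer of the DCL3 type cuts it, and an Argonaute of the AGO4 type binds the small RNA. In endosperm, DNA methylation is known to differ between the maternal and the paternal genome and to mark many imprinted genes, whose expression depends on the parent an allele came from. The reciprocal crosses were made to find such genes.

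The tables give whole-number counts of reads with the maternal and the paternal allele at each SNP, with the replicates of a cross already pooled, so only the counting error of a value is known. Endosperm holds 2 maternal genomes and 1 paternal genome, so equal output per genome gives a maternal share of 66.7%. The median tested locus had a share of 67.1% (LR), 63.8% (RL), 75.1% (YW) and 62.9% (WY). YW was the cross farthest from the dosage. Total allele counts were between 29149713 and 34433249 per cross. All 9 endosperm markers (starch genes, OsNF-YB1, RPBF and OsFIE1) were listed in LR-RL and 7 of 9 in YW-WY. Their summed level was 29636 (LR), 35043 (RL), 11795 (YW) and 18399 (WY) CPM, allele counts scaled to the total of the cross. Of 4 genes of green tissue, 2 were listed, with a sum between 42.7 and 178 CPM, and OsMADS29, a gene of maternal seed tissue, was not listed. The part of other tissues in the results was not tested.

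OsAGO4b was read mainly from the paternal allele in all 4 crosses. It had 371 maternal and 941 paternal counts in LR, a maternal share of 28.3% (Wilson 95% interval 25.9 to 30.8). In RL it had 701 maternal and 1125 paternal counts, a share of 38.4% (36.2 to 40.6). The shares were 40.4% (38.2 to 42.5) in YW, with 818 maternal and 1209 paternal counts, and 42.4% (40.2 to 44.7) in WY, with 773 and 1048. No interval reached 66.7%, and LR was the lowest of the crosses while the other 3 lay close together. Per genome copy, the paternal allele gave 5.07 times the counts of the maternal one in LR, 3.21 times in RL, 2.96 times in YW and 2.71 times in WY. The maternal allele was read in every cross.

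**Figure D1:**
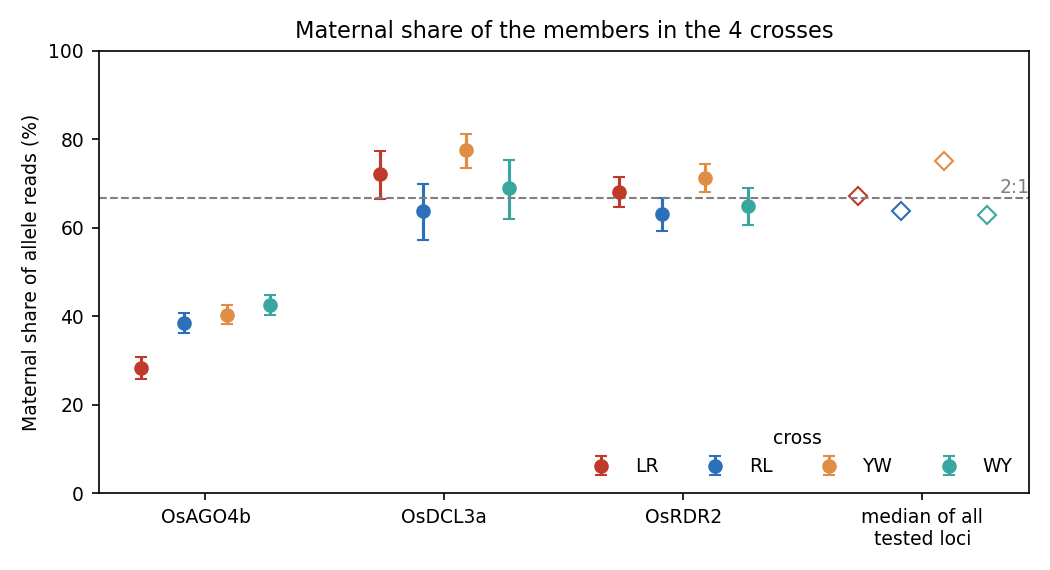
Maternal share of allele reads (%) of OsAGO4b, OsDCL3a and OsRDR2 in LR, RL, YW and WY, with Wilson 95% intervals (counting error only); open diamonds are the medians of all tested loci and the dashed line is 2:1. OsAGO4b lies between 28.3% and 42.4% in the 4 crosses, below every other point, whereas the other genes lie near the medians.

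The parent effect of a gene is the mean over both crosses of a set of log2 maternal over paternal, relative to 2:1, and a call needed an adjusted p under 0.05 with both shares on the same side. OsAGO4b had an effect of -2.01 (95% interval from the counts -2.12 to -1.90) in LR-RL and was called paternal (exact binomial test, larger p of both crosses, Benjamini-Hochberg adjusted over 10867 loci, p = 1.12e-132). Paternal calls were made at 6.75% of the tested loci in LR-RL and at 3.64% in YW-WY. In YW-WY its effect was -1.50 (-1.59 to -1.41), again a paternal call (exact binomial test, adjusted p = 1.15e-97 over 11443 loci). Against the median ratio in place of 2:1 its effects were -1.93 in LR-RL and -1.68 in YW-WY. Both were paternal calls, which 5.64% and 5.51% of loci had under that null (maternal calls 2.95% and 3.30%). Only 2.94% of tested loci in LR-RL and 4.50% in YW-WY had a lower effect. These tests compare pooled libraries and count a read again at each SNP it covers, so their p-values are too small.

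A fit of all 4 crosses that takes the 2 sets as replicates adds a spread beyond counting error. Each locus leaves 1 residual degree of freedom, so this spread was taken mainly from all loci together (common dispersion 0.047). It is therefore no measure of replicate spread at OsAGO4b itself, and the summed counts still repeat reads. Intervals of this fit were worked back from the effect and its test statistic. In this fit the effect of OsAGO4b was -1.76 (95% interval -2.20 to -1.31, edgeR quasi-likelihood test, adjusted p = 2.94e-13), with the same direction in 4 of 4 crosses. This fit called 6.70% of 9753 loci paternal and 2.55% maternal. With 1 strain term for both sets the adjusted p of OsAGO4b was 0.00637, the highest of the 5 alternatives to this fit, which ranged down from there to 6.95e-16.

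The 17 SNPs of OsAGO4b on chromosome 4, from 3555468 to 3560722 in the coordinates of the tables, were the same in both tables. All 17 had a maternal share below 2:1 in each of the 4 crosses. The background for a single SNP was 44.4% below 2:1 (LR), 61.5% (RL), 22.2% (YW) and 61.1% (WY). Neighbouring SNPs share reads, and the 17 SNPs form 9 blocks separated by more than 100 bases of genome. The lowest, median and highest SNP shares were 20.5%, 28.7% and 53.8% in LR, and 27.8%, 34.1% and 51.5% in RL. In YW they were 28.9%, 42.2% and 60.0%, and in WY 26.8%, 39.5% and 54.0%.

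Shares differed along the gene, and some stretches did so in the same way in both sets. At C3556202T, the SNP of OsAGO4b with most counts in LR-RL (reference base, genome position, alternative base, as the table lists them), 38 of 133 counts were maternal in LR, 28.6% (21.6 to 36.8), and 78 of 195 in RL (33.4 to 47.0). The block of 3 SNPs at positions 1598 to 1631 of the gene model had 29.6% in LR and 39.1% in YW, the crosses with a japonica mother, against 49.5% in RL and 50.8% in WY. The block of 4 SNPs at 3040 to 3115 had 22.8% (LR), 34.9% (RL), 32.2% (YW) and 32.7% (WY). C3557922T, at position 1971, had the highest share of LR with 28 maternal and 24 paternal counts, 53.8% (40.5 to 66.7), against 34.1% in RL. In LR-RL the Liuqianxin allele was the reference allele at all 17 SNPs, as at 96.7% of the SNPs of that table. The part of the reference base in the shares was not tested.

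**Figure D2:**
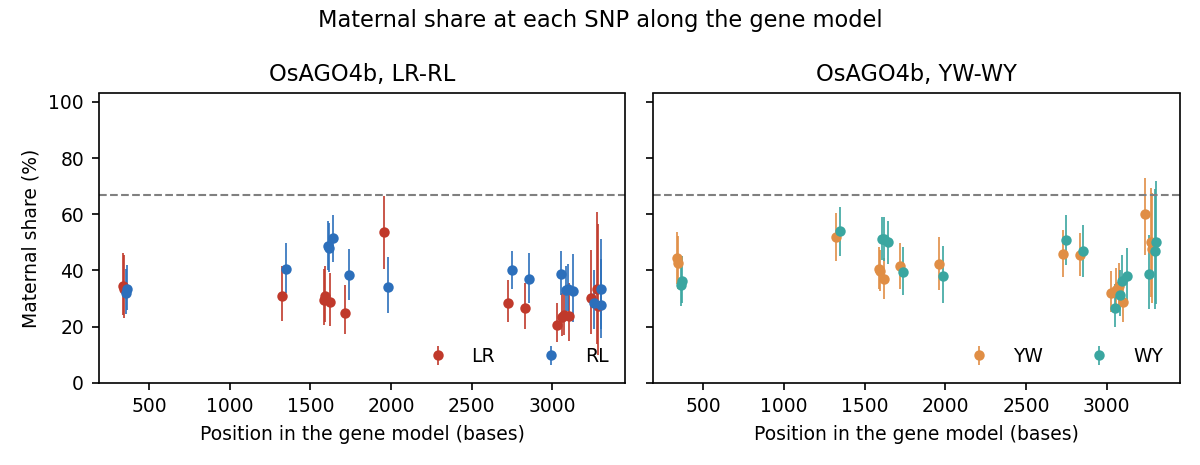
Maternal share (%) at each of the 17 SNPs of OsAGO4b by position in the gene model (bases), with Wilson 95% intervals, for LR and RL (left) and YW and WY (right); points of a pair of crosses are drawn 24 bases apart. All points lie below the dashed line at 2:1, from 20.5% to 60.0%.

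The reciprocal design shows the same strain's allele once as the paternal and once as the maternal copy. The japonica allele of OsAGO4b had 32.7 CPM per genome copy as the paternal copy in RL and 6.24 as the maternal copy in LR, a ratio of 5.23 (95% interval from the counts 4.65 to 5.89). The indica allele had 31.7 as the paternal copy in LR and 10.2 as the maternal copy in RL, a ratio of 3.11 (2.82 to 3.43). In YW-WY the japonica allele had 35.8 as the paternal copy and 14.0 as the maternal copy, a ratio of 2.55 (2.33 to 2.79), and the indica allele 41.5 and 13.2, a ratio of 3.14 (2.87 to 3.44). Scaled to total counts, the paternal level within LR-RL was nearly the same for both strains' alleles, and the maternal level was the one that differed. The median locus was higher in LR than in RL by 0.24 on the log2 scale, so this likeness depends on the scaling. Scaled to the median tested locus in place of the total, these ratios were 6.18 and 2.63 in LR-RL and 3.46 and 2.32 in YW-WY. The strain effect is the difference of the log2 departures of a set divided by 2, japonica over indica. It was -0.33 (-0.44 to -0.22) in LR-RL and -0.06 (-0.15 to 0.03) in YW-WY. With SNPs at least 300 bases apart it was -0.16 in LR-RL with an interval that included 0, so the strain effect of OsAGO4b was not stable.

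**Figure D3:**
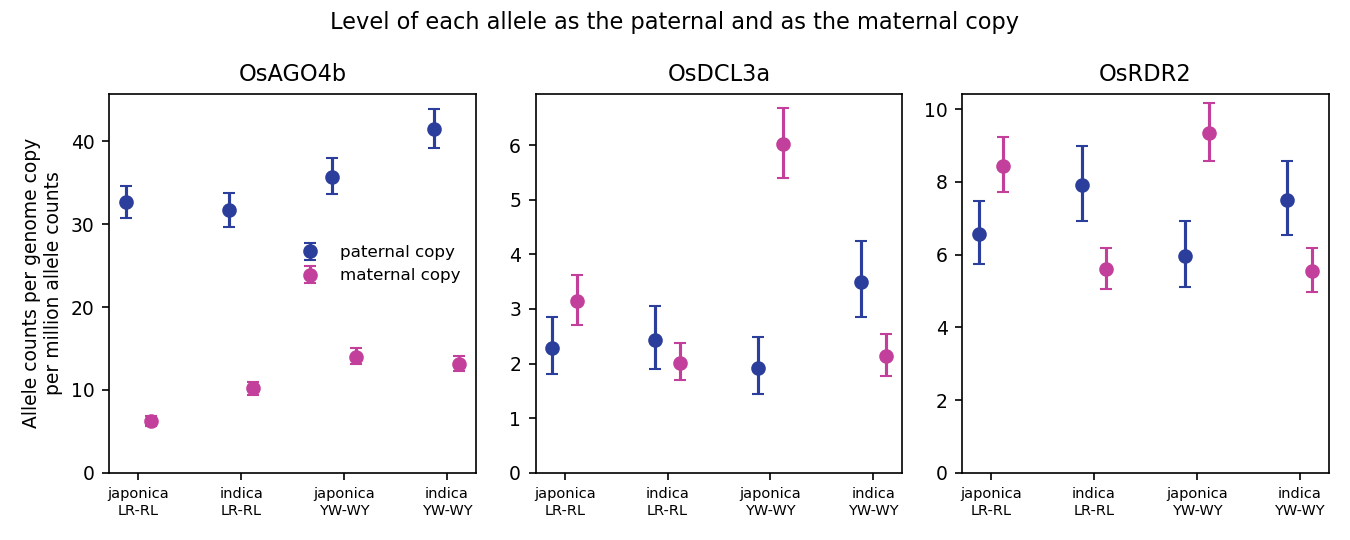
Level (CPM of allele counts per genome copy) of each strain's allele as the paternal and as the maternal copy, in LR-RL and YW-WY, with exact Poisson 95% intervals (counting error only); each panel has its own linear axis from 0. For OsAGO4b the paternal copy is between 31.7 and 41.5 CPM and the maternal copy between 6.24 and 14.0 CPM, and their intervals do not overlap.

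OsDCL3a, the Dicer, had no parental call, and its interval included 66.7% in 3 of the crosses. It had 187 maternal and 72 paternal counts in LR, a share of 72.2% (66.4 to 77.3), and 139 and 79 in RL, 63.8% (57.2 to 69.9). In YW it had 351 maternal and 102 paternal counts, 77.5% (73.4 to 81.1), and in WY 125 and 56, 69.1% (62.0 to 75.3). YW was the one cross whose interval lay wholly above 66.7%, and the median locus of YW was itself at 75.1%. The parent effect was 0.09 (-0.19 to 0.37) in LR-RL (exact binomial test, adjusted p = 0.605) and 0.46 (0.19 to 0.74) in YW-WY (adjusted p = 0.693, exact binomial test). Maternal calls were made at 2.02% of loci in LR-RL and at 5.94% in YW-WY. In the joint fit the effect was 0.28 (-0.22 to 0.78, edgeR, adjusted p = 0.884), so a paternal bias of the size of OsAGO4b lay outside these intervals.

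The 9 SNPs of OsDCL3a lie on chromosome 1 from 39595988 to 39605333 and were the same in both tables, with 16 to 68 counts each. At this depth single SNPs scattered widely, from 11 of 22 counts maternal to 85.7% in LR and from 42.9% to 80.0% in RL. They ranged from 67.6% to 83.9% in YW and from 43.8% to 100% in WY. C39598158A had 17 maternal and 0 paternal counts in WY, which allows a paternal share of up to 17.6%, whereas it had 34 and 15 in YW. All 9 SNPs were above 2:1 in YW, but 5 of 9 were below it in WY. The strain effect toward japonica was 0.28 (0.0010 to 0.56) in LR-RL and 0.31 (0.037 to 0.59) in YW-WY. Against the median ratio of each cross it was 0.17 and -0.10, so its direction in YW-WY depended on the null.

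OsRDR2, the RNA-dependent RNA polymerase, had the parent effect closest to 0 of the 3 genes in both sets. It had 502 maternal and 235 paternal counts in LR, 68.1% (64.7 to 71.4), and 386 and 226 in RL, 63.1% (59.2 to 66.8). In YW it had 545 maternal and 219 paternal counts, 71.3% (68.0 to 74.4), and in WY 325 and 175, 65.0% (60.7 to 69.1). The crosses with a japonica mother were the higher ones in both sets. The median tested locus did the same, at 67.1% (LR), 63.8% (RL), 75.1% (YW) and 62.9% (WY). Its parent effect was -0.07 (-0.23 to 0.09) in LR-RL (exact binomial test, adjusted p = 0.631) and 0.10 (-0.07 to 0.28) in YW-WY (exact binomial test, adjusted p = 0.606). The joint fit gave 0.02 (-0.40 to 0.44, edgeR, adjusted p = 0.994). Neither set gave a parental call, and 50.8% of tested loci in LR-RL and 44.5% in YW-WY had a lower effect.

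The SNPs of OsRDR2 lie on chromosome 4 from 23285014 to 23290117, 8 in LR-RL and 6 of the same in YW-WY. T23289666A, its SNP with most counts, went the other way from the gene as a whole in both sets. Its maternal share was 58.9% (50.8 to 66.6) in LR and 59.2% (52.3 to 65.8) in YW, against 67.4% in RL and 70.9% in WY. At G23290117T, the last SNP of the gene, the shares were 72.7% in LR and 81.2% in YW, against 60.9% in RL and 53.8% in WY. The opening pair of SNPs, at positions 207 and 378 of the gene model, were listed in LR-RL alone and had 12 to 20 counts. The strain effect of OsRDR2 was 0.16 (-0.0015 to 0.32) in LR-RL and 0.21 (0.037 to 0.39) in YW-WY. Over all tested loci the median strain effect was 0.099 in LR-RL and 0.41 in YW-WY, above that of OsRDR2 in YW-WY. With T23289666A alone the strain effect of OsRDR2 was -0.26 in LR-RL and -0.37 in YW-WY, opposite in direction to the sum of all its SNPs.

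**Figure D4:**
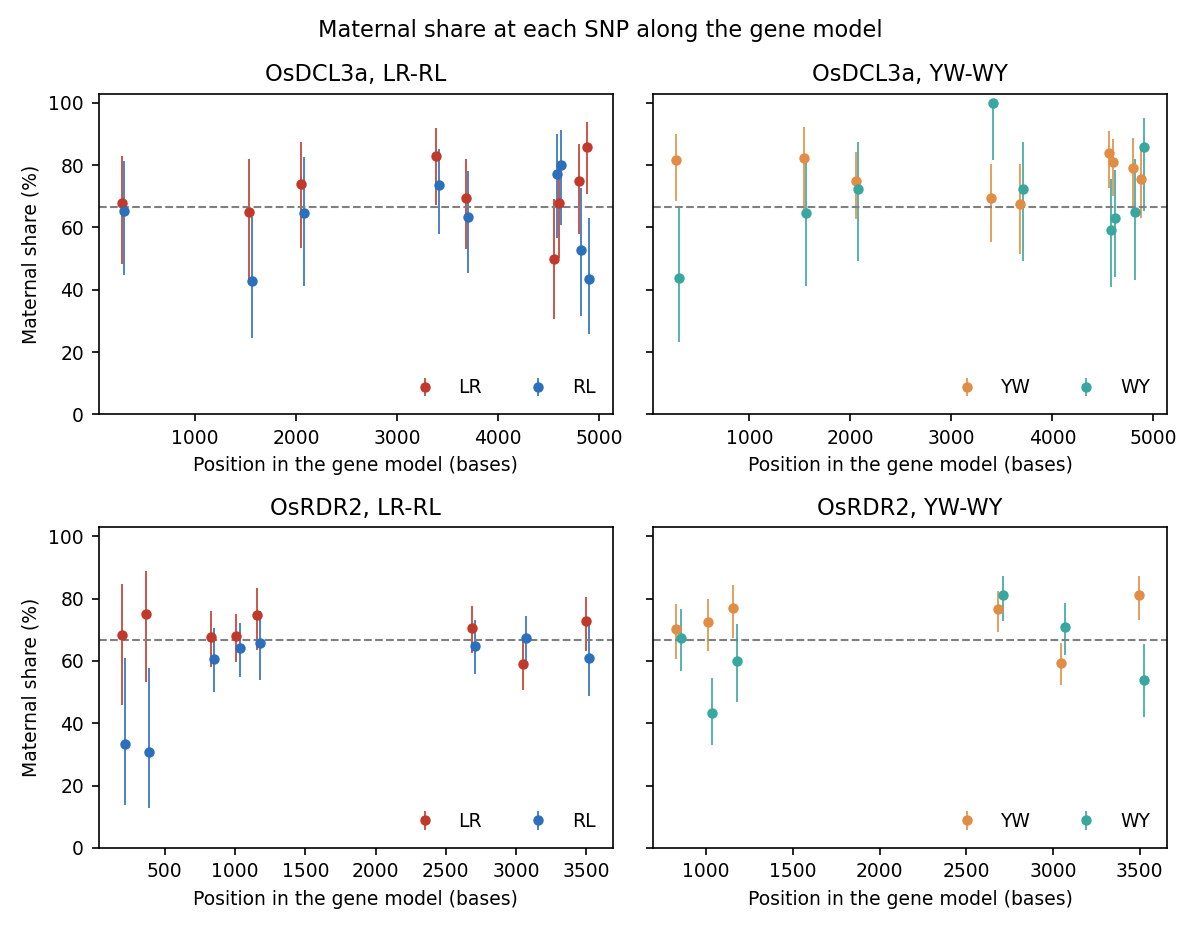
Maternal share (%) at each SNP of OsDCL3a (top) and OsRDR2 (bottom) by position in the gene model (bases), with Wilson 95% intervals, for LR and RL (left) and YW and WY (right). The points lie on both sides of the dashed line at 2:1, from 30.8% to 100%.

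Each pair of genes was compared within each cross by Fisher's exact test (two-sided, counting error only), with p-values adjusted over the 12 comparisons. OsAGO4b was less maternal than OsDCL3a in all 4 crosses, with log2 ratios of -2.71 (LR, 95% interval -3.14 to -2.28), -1.49 (RL, -1.91 to -1.07), -2.34 (YW, -2.68 to -2.0) and -1.59 (WY, -2.06 to -1.12). The adjusted p of these exact tests was at most 1.07e-11. OsAGO4b was also less maternal than OsRDR2, with log2 ratios of -2.44 (LR, -2.72 to -2.15), -1.45 (RL, -1.73 to -1.18), -1.88 (YW, -2.14 to -1.62) and -1.33 (WY, -1.63 to -1.03) and an adjusted p of at most 6.12e-19 (exact test). OsDCL3a and OsRDR2 differed in YW, by 0.46 (0.075 to 0.85, Fisher's exact test, adjusted p = 0.0249). The intervals of their difference were -0.17 to 0.73 in LR, -0.42 to 0.50 in RL and -0.26 to 0.78 in WY. With the SNP with most counts alone, OsAGO4b and OsDCL3a in WY differed by -0.67 (adjusted p = 0.362, exact test), which no longer passed. In that setting OsDCL3a and OsRDR2 differed by 1.67 in LR (adjusted p = 0.0138, exact test), a call gained, and by 1.5 in YW (adjusted p = 0.00202, exact test).

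The sets differed in the size of the bias at OsAGO4b. Its parent effect was higher in YW-WY than in LR-RL by 0.51 (0.37 to 0.65, Wald test on the counts, adjusted p = 4.91e-11 over 9753 loci). The median locus shifted by 0.25 in the same direction, with 39.2% of loci called more maternal in YW-WY and 3.74% in LR-RL. With the median ratio as the null, the difference of OsAGO4b was 0.26 (adjusted p = 0.00371; 3.65e-11 to 0.0144 over the 6 alternatives). The difference was 0.37 (-0.019 to 0.77) for OsDCL3a and 0.17 (-0.068 to 0.41) for OsRDR2, and neither passed. This test does not include a spread between replicates.

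Total levels were compared within a set only, where both crosses are read at the same SNPs. OsDCL3a had 15.5 CPM in YW (exact Poisson 95% interval 14.1 to 17.0) and 6.18 in WY (5.31 to 7.15), a ratio of 2.51. The median locus was higher in YW than in WY by 0.44 on the log2 scale, and 89.7% of loci had a lower ratio than OsDCL3a. The summed green tissue markers were also higher with the japonica mother, at 178 CPM in YW and 78.4 in WY, and at 108 in LR and 42.7 in RL. In LR-RL this sum rested on OsRBCS2, with 102 CPM in LR and 30.8 in RL. OsRBCS3, the other listed green tissue marker, was lower in LR than in RL. In YW-WY both OsRBCS2 and OsRBCS3 were higher in YW. The summed endosperm markers were lower with the japonica mother, at 11795 CPM in YW and 18399 in WY, and at 29636 in LR and 35043 in RL. Single endosperm markers went both ways. OsBT1, OsAGPS2, OsBEI and RPBF were lower in YW than in WY, but OsNF-YB1, OsSSIIIa and OsFIE1 were higher. In LR-RL the lower sum rested on Wx, with 6569 CPM in LR and 14135 in RL. Without Wx the endosperm markers summed to more in LR than in RL. Of these, RPBF, OsSSIIIa and OsBEI were lower in LR, but OsNF-YB1, OsBT1, OsAGPL2, OsAGPS2 and OsFIE1 were higher. The part of tissue makeup in these levels was not tested. In LR-RL OsDCL3a had 8.72 CPM in LR and 6.33 in RL. OsRDR2 had 24.8 CPM in LR and 17.8 in RL, and 26.2 in YW and 17.1 in WY. OsAGO4b had 44.2 CPM in LR and 53.0 in RL, and 69.5 in YW and 62.1 in WY. There is no replicate check of these ratios, and in pooled tissue fewer cells of a type and less RNA per cell cannot be told apart.

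The wider list held 37 loci for Argonautes, Dicers, RNA-dependent RNA polymerases, DRM-type DNA methyltransferases and HEN1, the methyltransferase that protects small RNAs. Without the 3 genes above, 14 of 34 were tested in each set, and 1 was called paternal and 1 maternal in LR-RL, and 1 paternal and 2 maternal in YW-WY. Counts this small are near the shares over all loci, which were 6.75% paternal and 2.02% maternal in LR-RL, and 3.64% and 5.94% in YW-WY. Against the median ratio the counts were 1 paternal and 2 maternal in LR-RL, and 2 and 2 in YW-WY. The added paternal call was LOC_Os04g52540, listed as OsAGO2 but annotated as a retrotransposon protein (YW-WY, exact binomial test, adjusted p = 1.42e-06). Its shares were 66.8% (LR), 38.3% (RL), 67.6% (YW) and 53.7% (WY), with no call against 2:1 in either set. The median parent effect of the 14 was 0.04 in LR-RL and 0.21 in YW-WY, against -0.07 and 0.15 over all tested loci. OsAGO16 (LOC_Os07g16224) was listed in LR-RL alone, with 1 SNP and no call. Its share was 68.6% of 35 counts in LR and 85.0% of 40 counts in RL. Loci of OsAGO15, OsDCL3b, OsDCL4, OsRDR1, OsRDR3, OsRDR4, OsDRM1a, OsDRM1b and OsHEN1 were not listed in either table and were not analysed here.

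OsAGO4a (LOC_Os01g16870), the paralog of OsAGO4b, lay at the dosage in LR-RL. Its maternal share was 66.7% (LR, 65.4 to 68.0), 66.1% (RL, 65.0 to 67.2), 75.4% (YW, 74.3 to 76.5) and 66.2% (WY, 64.9 to 67.4), with no call in either set. In a comparison added after these values were seen, OsAGO4b was less maternal than OsAGO4a in all 4 crosses, with log2 ratios of -2.34 (LR, -2.54 to -2.15), -1.64 (RL, -1.80 to -1.49), -2.18 (YW, -2.33 to -2.03) and -1.41 (WY, -1.56 to -1.25) (Fisher's exact test, adjusted p at most 1.42e-70). Reads that align to both paralogs could be counted at either, which was not tested.

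Of the list, a methyltransferase locus and an Argonaute locus had the most one-sided reads. OsDRM3 (LOC_Os05g04330), annotated as a DNA methyltransferase, was paternal in both sets, with 11 maternal and 303 paternal counts in LR (3.5% maternal) and 1 and 215 in RL (0.463%). In YW it had 100 maternal and 303 paternal counts (24.8%), and in WY 0 of 235 counts were maternal, which allows up to 1.28%. Its adjusted p was 1.60e-99 in LR-RL and 1.25e-64 in YW-WY (exact binomial test). OsAGO14 (LOC_Os07g09020), annotated as an argonaute, was maternal in both sets (exact binomial test, adjusted p = 7.88e-08 in LR-RL and 1.18e-34 in YW-WY). Its LR counts held 0 paternal of 90 (at most 3.33% paternal), and those of RL 0 paternal of 46 (at most 6.52%). In YW it had 241 maternal and 3 paternal counts, and in WY 0 paternal counts of 200, which allows up to 1.5%. LOC_Os07g28850, listed as OsAGO18 but annotated in the tables as a retrotransposon protein, had 95.6% (LR), 71.0% (RL), 91.0% (YW) and 79.4% (WY). It was called maternal in YW-WY (exact binomial test, adjusted p = 8.37e-09), and in LR-RL its adjusted p was 0.0898 (exact binomial test). The LR-RL call was gained against the median ratio (adjusted p = 0.00202), and the YW-WY call was lost with the SNP with most counts (adjusted p = 0.0720, both exact binomial tests). The joint fit gave an effect of 1.75 (edgeR, adjusted p = 1.64e-11; 9.63e-06 to 0.0166 over 4 alternatives, 1.51e-11 with no count filter).

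OsDRM2 (LOC_Os03g02010) and OsRDR6 (LOC_Os01g34350) followed the strain of the allele in LR-RL. OsDRM2, a DNA methyltransferase, had 76.1% in LR and 58.8% in RL, and 79.5% in YW and 56.2% in WY. OsRDR6, an RNA-dependent RNA polymerase, had 76.9% in LR and 60.3% in RL, and 80.4% in YW and 62.3% in WY. In YW-WY each of these loci was read at 1 SNP. Both had a japonica call in LR-RL, where 20.1% of loci had one, and these calls were lost against the median ratio of each cross. OsAGO1b, annotated as PINHEAD, had japonica calls in both sets, with 77.8% in LR and 56.4% in RL, and 73.7% in YW and 60.5% in WY. In YW-WY 32.1% of loci had a japonica and 5.13% an indica call. The YW-WY call of OsAGO1b was lost against the median ratio. OsAGO1a and OsAGO1c had japonica calls in YW-WY alone, which were also lost. OsAGO12 went the other way in YW-WY, with 49.5% in YW and 85.8% in WY. It had an indica call there, which was kept against the median ratio.

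**Figure D5:**
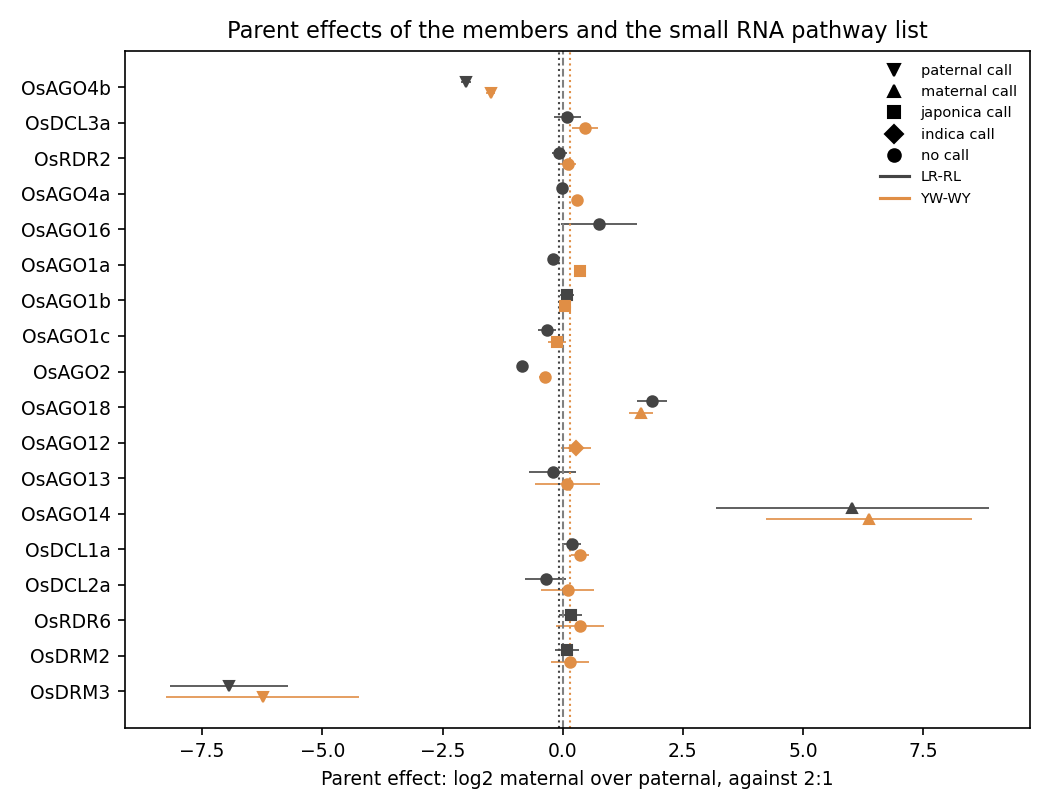
Parent effect (log2 maternal over paternal, against 2:1) of the 3 genes and of each tested locus of the list in LR-RL and YW-WY, with 95% intervals from the counts; the marker shape gives the call, dotted lines are the medians of all tested loci and the dashed line is 2:1. OsAGO4b lies at -2.01 and -1.50, between OsDRM3 on the paternal side and the loci near 0, with OsAGO14 on the maternal side.

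The loci listed next to OsAGO4b had no parental call. LOC_Os04g06790, annotated as a 2-aminoethanethiol dioxygenase and 15014 bases away, had 53.9% (LR), 62.5% (RL), 66.7% (YW) and 57.4% (WY). Its interval in LR, 43.6 to 63.9 from 89 counts, lay below 66.7%, and its parent effect in LR-RL was -0.52 (-0.94 to -0.10). On the other side LOC_Os04g06520, an expressed protein 143547 bases away in LR-RL, had a japonica call in both sets, which was lost in YW-WY against the median ratio (adjusted p = 0.350, exact binomial test). Among the 10 nearest listed loci of LR-RL, LOC_Os04g05030, a serine-rich protein at a distance of 1107758 bases, was paternal in both sets, with 4.33% (LR), 25.9% (RL), 17.6% (YW) and 23.3% (WY). LOC_Os04g05010, a CBS domain membrane protein, had a small paternal call in LR-RL with 60.0% in LR and 56.2% in RL. In YW-WY its parent effect was -0.44 with no call, and against the median ratio it was -0.62, a paternal call. LOC_Os04g08034, a C2H2 zinc finger gene, was maternal in both sets.

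OsRDR2 stood beside a locus read almost only from the mother. LOC_Os04g39150, annotated as a Bet v I family protein related to pathogenesis, had a single SNP, 6383 bases from the nearest of OsRDR2. Its 202 counts in LR held 0 paternal ones (at most 1.49%) and its 144 counts in RL also 0 (at most 2.08%), and its maternal share was 99.6% in YW and 99.9% in WY. No other tested neighbour of OsRDR2 had a parental call. None of the 10 listed neighbours of OsDCL3a had a parental call against 2:1 in either set, and LOC_Os01g68160, a C2H2 zinc finger gene, had an indica call in both. Against the median ratio LOC_Os01g68310, a Sas10/Utp3 family gene, had a paternal call in YW-WY (-0.56, exact binomial test, adjusted p = 0.0149).

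The loci whose 4 log2 departures lay nearest to those of OsAGO4b were LOC_Os09g38400, annotated as a spermine-binding protein precursor, LOC_Os11g34190, an expressed protein, and LOC_Os01g41310, the F-box gene OsFBX18. Their Euclidean distances over the 4 crosses were 0.245, 0.323 and 0.432, among 9753 loci. All 3 had paternal calls in both sets, but calls and distances come from the same values, so these calls are no separate support. LOC_Os09g38400 had 28.9% (LR), 41.3% (RL), 39.7% (YW) and 45.2% (WY). Nearest to OsDCL3a were LOC_Os10g35990 (a DEAD-box RNA helicase, 0.0927), LOC_Os01g04930 (a MYB gene, 0.103) and LOC_Os06g09850 (a vesicle transport protein, 0.117). Nearest to OsRDR2 were LOC_Os11g05370 (ribosomal protein L26-1, 0.0485), LOC_Os01g32380 (0.0605) and LOC_Os06g44270 (0.0627). Of the loci nearest to OsDCL3a and OsRDR2, LOC_Os11g05370 had japonica calls in both sets and LOC_Os10g35990 in LR-RL, and the rest had no call.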

How the data were processed

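The deposited tables hold whole-number counts of reads with the maternal and the paternal allele per SNP; per the file headers there is 1 pair of columns per cross, so the authors had pooled the replicates (3 in LR and RL, 2 in YW and WY). Another 12 value columns (p-values, false discovery rates, ratios and coverage) were not used. Per the submitters' processing notes, GATK 3.5, SAMtools 0.1.16, Bowtie2 2.2.1 and Trimmomatic 0.32 were used, in an order they do not state. No source used here names the genome build. Each SNP has at least 11 reads per cross. Counts were summed per locus. Loci were tested where both crosses reached 30 counts in LR-RL, or 20 in YW-WY, that is, 10 per library. Each cross was tested against 2:1 with an exact two-sided binomial test, keeping the larger p and adjusting by Benjamini-Hochberg over all tested loci. The joint fit used edgeR 4.0.16 in R 4.3.3 with terms for cross and for strain in each set and an offset for the dosage. DESeq2 1.42.0 was an alternative. Log ratios had 0.5 added to each count. Both tests were run on simulated counts drawn around 2:1. Those counts had no cross medians away from 2:1 and no reads shared between SNPs. The rate of false calls in the real data is therefore not known from them. Intervals other than those of the joint fit, and the limits of 3 counts for a count of 0, cover counting error only. The 3 genes, the list of 37 loci and the tests were chosen with earlier results of these data known, so no list count is independent support. Named besides the 3 genes are loci of the list with a parental call or of the AGO4, RDR and DRM groups. Listed neighbours with a parental call (5 on each side) and the 3 loci nearest in pattern are also named. OsAGO1a, OsAGO1b, OsAGO1c, OsAGO2, OsAGO12, LOC_Os04g06790, LOC_Os04g06520, LOC_Os01g68160 and LOC_Os01g68310 were added after their values were seen.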

Additional observations from a re-analysis of the deposited data

Results flagged for a closer look

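The parent effect of OsAGO4b differed between the sets, with -1.50 in YW-WY and -2.01 in LR-RL, a difference of 0.51 (log2, 95% interval 0.37 to 0.65). It was singled out because a Wald test on the counts passed for the difference itself (adjusted p = 4.91e-11 over 9753 loci). The median locus moved by 0.25 in the same direction. With the median ratio of each cross as the null, a difference of 0.26 remained at OsAGO4b. The pooled counts hold no spread between replicates against which either value could be set.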

How the results depend on the processing

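The paternal calls of OsAGO4b held in both sets and in the joint fit under every alternative run: the parent effect ranged from -2.04 to -1.93 in LR-RL, from -1.68 to -1.24 in YW-WY and from -1.78 to -1.59 in the joint fit. OsDCL3a and OsRDR2 gained no parental call. The parent effect of OsDCL3a in LR-RL was -0.032 with 1 SNP left out and 0.81 with the SNP with most counts, against 0.09. That of OsRDR2 changed sign against the median ratio (0.011 in LR-RL, -0.073 in YW-WY), with the SNP with most counts (-0.10 in YW-WY, -0.15 in the joint fit), with 1 SNP left out (-0.086 in YW-WY) and with DESeq2 (-0.00069). Strain effects were the least stable. Against the median ratio they were -0.48 for OsAGO4b, -0.10 for OsDCL3a and -0.20 for OsRDR2 in YW-WY, and 0.17 for OsDCL3a in LR-RL. With SNPs 300 bases apart they were -0.16 (LR-RL) and 0.049 (YW-WY) for OsAGO4b, and in YW-WY 0.22 for OsDCL3a and 0.079 for OsRDR2. With the SNP with most counts they were 0.37 (LR-RL) and 0.65 (YW-WY) for OsDCL3a, and -0.26 and -0.37 for OsRDR2. With 1 SNP left out they were 0.13 and 0.21 for OsDCL3a, and 0.28 and 0.079 for OsRDR2, in LR-RL and YW-WY. The difference between sets was -0.42 for OsDCL3a (SNP with most counts) and -0.085 for OsRDR2 (median ratio). Between genes, with the SNP with most counts, OsAGO4b against OsDCL3a in WY was -0.67, and OsDCL3a against OsRDR2 was 1.67 in LR and -0.54 in WY. OsAGO4a in LR-RL was 0.061 (median ratio) and 0.011 (SNP with most counts), and OsDRM2 was -0.039 in LR-RL (SNPs apart) and -0.028 in YW-WY (median ratio). The cause of these changes was not tested. Calls over all loci moved by over 1.5 times in some settings. With the SNP with most counts, paternal and maternal calls in LR-RL numbered 466 and 144, against 734 and 219, and maternal calls in YW-WY 383, against 680. Against the median ratio, YW-WY had 630 paternal and 378 maternal calls, against 417 and 680. With 1 strain term the joint fit made 353 and 148, against 653 and 249. With SNPs of indica reference there were 24 and 6 in LR-RL, and none of the 3 genes has such a SNP. No paired analysis was possible because the columns hold pooled replicates without numbers, and for the same reason no replicate could be left out. Depth limited single SNPs of OsDCL3a, with 16 to 68 counts each.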
